A study of Saccharomyces cerevisiae with 6 samples.

Results

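Lysine biosynthesis is followed here through 9 genes of Saccharomyces cerevisiae: 7 genes of enzymes on the route itself (LYS20, LYS21, LYS4, LYS12, LYS2, LYS9 and LYS1), LYS5, whose product switches on the Lys2 enzyme, and the regulator gene LYS14. They were chosen by gene symbol, and each was read by a single probe set that the array annotation pairs with that gene alone, so 9 of the 5449 measured genes are described. The strain was VTT C-10883, kept anaerobic in chemostats, which are continuous cultures fed with fresh medium. Total RNA from 6 cultures was hybridised to Affymetrix arrays, 3 cultures labelled as having no inhibitors and 3 as treated with hydroxymethylfurfural (HMF) and furfural, aldehydes that form when plant sugars break down. The treatment was a step change to medium with both aldehydes, and strain, anaerobic growth and extraction kit were shared by both groups. The sources used here give neither the strain's genotype nor the medium, dose or sampling time, so whether lysine was supplied in the feed is unknown.

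Fungi make lysine by the aminoadipate route, which differs from the diaminopimelate route of plants and most bacteria. Acetyl-CoA and 2-oxoglutarate are joined to homocitrate, which is rearranged and oxidised to 2-oxoadipate, then transaminated to 2-aminoadipate, reduced to its semialdehyde, and turned through saccharopine into lysine. The pathway draws on glutamate and on NADPH. The activator Lys14 responds to the semialdehyde intermediate, which falls when lysine shuts down homocitrate synthase, and the general activator Gcn4 adds control that is shared with many other amino acid pathways.

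With inhibitors, 5 of the 9 genes fell and 1 rose. LYS14 fell by 26.9%, LYS20 fell by 24.6% and LYS1 fell by 23.1%. LYS2 fell by 16.7%, LYS5 fell by 13.7%, and LYS9 rose by 8.73%. LYS21, LYS4 and LYS12 did not pass the test. Each percentage is the change of the group mean of 3 arrays taken back from the log2 scale, and a gene was called when its adjusted p was under 0.05 in limma, a linear model with variance moderation fitted to all 5449 genes with Benjamini-Hochberg adjustment. In the same fit 42.2% of all genes were called, 22.3% lower and 19.9% higher, against 55.6% and 11.1% of the 9. The median log2 fold change was -0.26 over the 9 genes and -0.01 over all genes. No call among the 9 reached a 2-fold change, and the largest fall, that of LYS14, was exceeded by the falls of 249 genes. The arrays read RNA pooled over each culture, so a lower level in every cell and fewer cells with the transcript cannot be told apart.

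All 9 genes lay above background on all 6 arrays, as did 5346 of the 5449 measured genes. The within-group SD of the 9 ran from 0.01 to 0.13 on the log2 scale. Background was the 95th percentile of the probe sets for fission yeast on each array, which was 2.22 on each. Of 5 fission yeast lys probe sets on the same arrays, 4 were above it on no array and 1 on a single array, with a highest signal of 2.22. The array medians over all genes ran from 7.46 to 7.48. The number of arrays limits the precision.

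**Figure D1:**
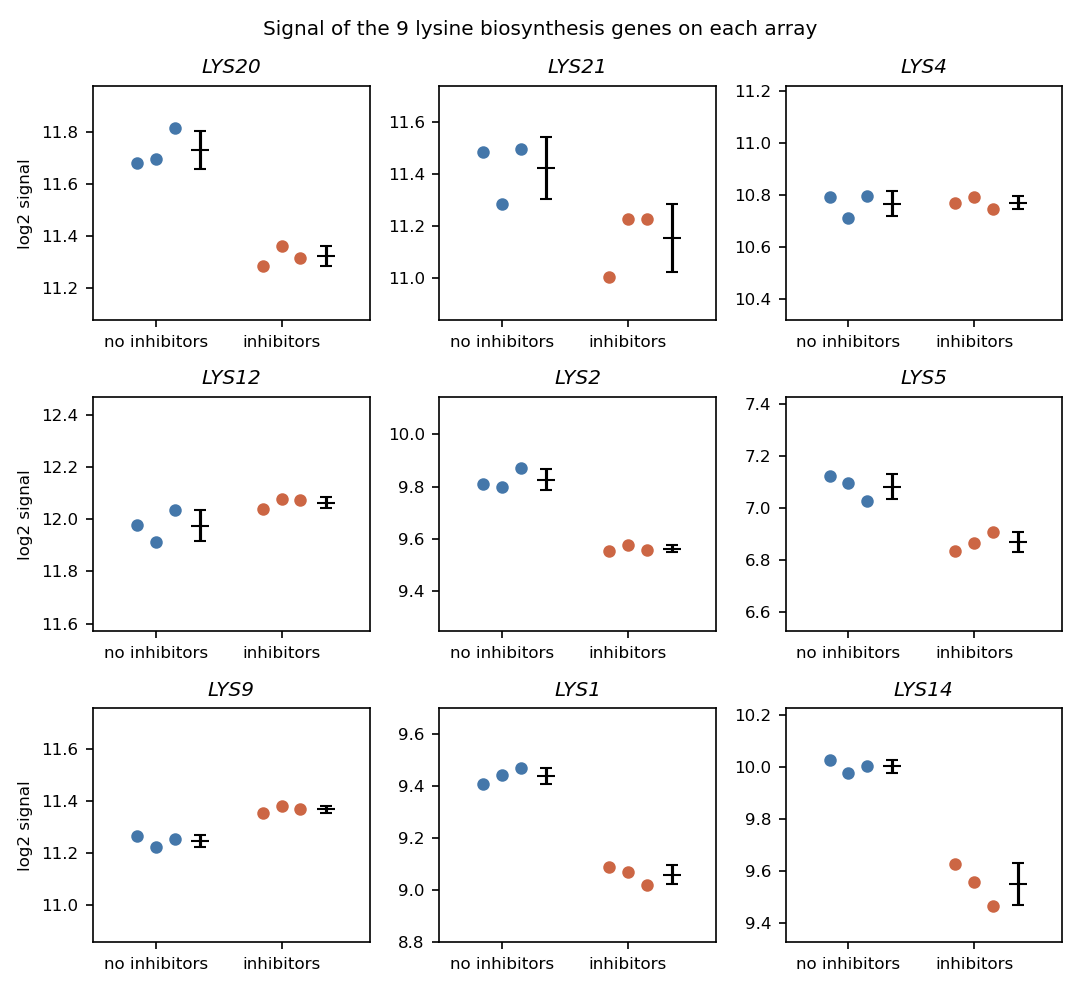
Log2 signal (vertical axis) of each of the 9 genes on the 3 arrays without inhibitors (blue) and the 3 with them (orange), with the mean and SD of each group in black. Every panel spans 0.9 on the log2 scale; the groups stand apart most in LYS14, LYS20 and LYS1 and overlap in LYS4.

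Homocitrate synthase, the entry step and the point where lysine feeds back, is made from a pair of isozyme genes, LYS20 (YDL182W) and LYS21 (YDL131W). The LYS20 log2 signal was 11.68, 11.69 and 11.81 without inhibitors and 11.29, 11.36 and 11.32 with them. All 3 treated cultures lay below all 3 untreated ones, with 0.32 between the nearest arrays. LYS20 fell by 0.41 on the log2 scale (SE 0.04, limma adjusted p = 0.00209).

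LYS21 spread more between replicates than any other of the 9 genes. Its log2 signal was 11.49, 11.29 and 11.50 without inhibitors and 11.00, 11.23 and 11.23 with them. The groups did not overlap, but the nearest arrays, no-inhibitor replicate 2 and inhibitor replicate 2, were only 0.06 apart. The log2 fold change was -0.27 (SE 0.09, limma adjusted p = 0.0592) and LYS21 was not called. Without no-inhibitor replicate 2 it was called, at a log2 fold change of -0.34 and a limma adjusted p of 0.0411. Leaving out any other single array left LYS21 not called (limma adjusted p 0.0851 to 0.156).

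Whether the isozyme genes changed by unequal amounts was tested on the difference of their log2 signals on each array. That difference was lower with inhibitors by a mean of -0.14 (SE 0.09, 95% interval -0.37 to 0.10, n = 3 arrays a group), with an exact two-sided permutation p of 0.2, where 0.1 is the smallest that 3 arrays against 3 allow. An unequal change of LYS20 and LYS21 was therefore not shown at this number of arrays, and the interval does not show that they changed alike.

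The next steps run in the mitochondrion. LYS4 (YDR234W) encodes homoaconitase, which forms homoisocitrate. Its log2 signal was 10.79, 10.71 and 10.80 without inhibitors and 10.77, 10.79 and 10.75 with them. The groups overlapped fully, and the log2 fold change of 0.0030 had a 95% interval of -0.08 to 0.08 (limma adjusted p = 0.959), an interval that does not reach the falls of LYS20 or LYS1.

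LYS12 (YIL094C) encodes homoisocitrate dehydrogenase, which yields 2-oxoadipate. The LYS12 log2 signal was 11.98, 11.91 and 12.03 without inhibitors and 12.04, 12.08 and 12.08 with them. The treated arrays lay above the untreated ones by a margin of only 0.0043. With a log2 fold change of 0.09 (95% interval -0.0027 to 0.18, limma adjusted p = 0.105), LYS12 was not called. Its log2 fold change was 0.06 without no-inhibitor replicate 2 and 0.12 without no-inhibitor replicate 3 (limma adjusted p = 0.21 and 0.05005, neither called).

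The reduction of 2-aminoadipate needs both LYS2 and LYS5. LYS2 (YBR115C) encodes the large aminoadipate reductase, which uses NADPH and ATP and is familiar as a selectable marker in yeast genetics. Its log2 signal was 9.81, 9.80 and 9.87 without inhibitors and 9.55, 9.58 and 9.56 with them. The treated arrays lay within a narrow range, all at least 0.22 below the untreated ones. LYS2 fell by 0.26 on the log2 scale (SE 0.03, limma adjusted p = 0.00174).

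LYS5 (YGL154C) encodes the phosphopantetheinyl transferase that attaches the cofactor Lys2 needs. Its signal was the lowest of the 9 probe sets, though signals of different probe sets do not rank transcript levels. LYS5 read 7.12, 7.10 and 7.03 on the log2 scale without inhibitors and 6.84, 6.87 and 6.91 with them, without overlap. LYS5 fell by 0.21 on the log2 scale (SE 0.03, limma adjusted p = 0.00719), so the enzyme gene and the gene of its activator were both lower.

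The last steps, through saccharopine, are run by a pair of dehydrogenases whose genes moved in opposite directions. LYS9 (YNR050C) encodes the saccharopine dehydrogenase that joins the semialdehyde to glutamate with NADPH. Its log2 signal was 11.27, 11.22 and 11.25 without inhibitors and 11.35, 11.38 and 11.37 with them. The groups did not overlap, and LYS9 rose by 0.12 on the log2 scale (SE 0.02, limma adjusted p = 0.00854).

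LYS1 (YIR034C) encodes the saccharopine dehydrogenase that releases lysine and 2-oxoglutarate while reducing NAD. Its log2 signal was 9.41, 9.44 and 9.47 without inhibitors and 9.09, 9.07 and 9.02 with them. The nearest arrays of the groups were 0.32 apart. LYS1 fell by 0.38 on the log2 scale (SE 0.03, limma adjusted p = 0.000852), the lowest adjusted p of the 9 genes.

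The difference between LYS9 and LYS1 was larger on every array with inhibitors than on any array without them. The LYS1 fall of 0.38 made up more of its change than the LYS9 rise of 0.12. The log2 signal of the LYS9 probe set minus that of the LYS1 probe set was 1.86, 1.78 and 1.79 without inhibitors and 2.26, 2.31 and 2.35 with them, a change of 0.50. The offset itself depends on the probes and has no meaning, and only its change does. This pair was chosen after its values were seen, so no test is given.

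**Figure D2:**
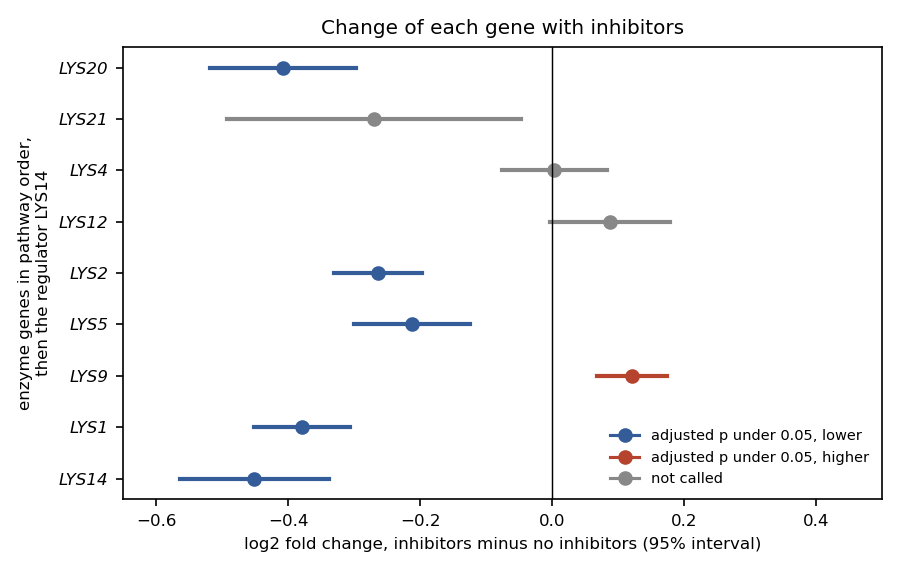
Log2 fold change of each gene, inhibitors minus no inhibitors (horizontal axis), with its 95% interval from limma, 3 arrays against 3; blue marks genes called lower, red higher and grey not called. LYS14, LYS20 and LYS1 lie furthest left, LYS9 is the 1 gene called higher, and the intervals of LYS4 and LYS12 span 0. The intervals are not adjusted for the number of genes. LYS21 is therefore not called although its interval, -0.49 to -0.05, does not span 0.

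LYS14 (YDR034C) encodes the zinc cluster transcription activator of the LYS genes, and it had the largest change of the 9. The LYS14 log2 signal was 10.03, 9.97 and 10.002 without inhibitors and 9.63, 9.56 and 9.47 with them. The highest treated array lay 0.35 below the lowest untreated one. LYS14 fell by 0.45 on the log2 scale (SE 0.04, limma adjusted p = 0.00168). Arrays report transcript and say nothing of how active the Lys14 protein was.

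Groups did not overlap for 8 of the 9 genes, LYS4 being the exception, against 55.4% of all genes. The treated arrays were the lower ones for 6 genes, against 29.3% of all genes, and the higher ones for 2, against 26.1%. LYS12 and LYS21 are the members without overlap that were not called. Placed beside all genes, 318 genes had a larger fall than LYS20, 354 than LYS1, 634 than LYS2 and 861 than LYS5. For LYS9, 1275 genes had a larger rise.

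**Figure D3:**
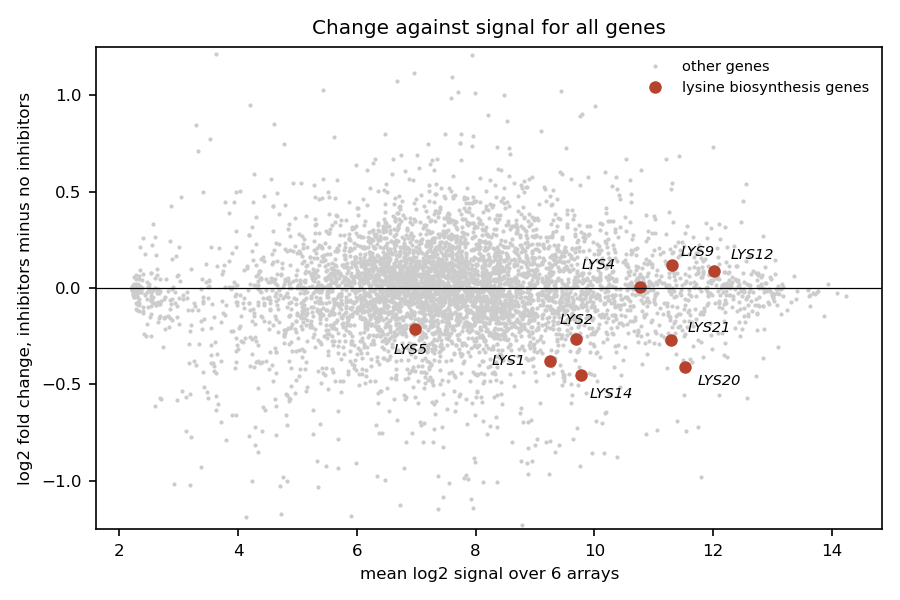
Log2 fold change, inhibitors minus no inhibitors (vertical axis), against mean log2 signal over 6 arrays (horizontal axis) for the 9 genes (red) and the other genes (grey); 31 genes with larger changes fall outside the vertical axis. LYS14 at -0.45 and LYS9 at 0.12 bound the range of the 9 genes.

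Genes that work beside the pathway were taken as 6 lists. Of 5 genes whose products share or connect its steps, 1 rose, 2 fell and 2 were not called, with a median log2 fold change of -0.09. The share of rises, 20%, equals the background of 19.9% to within rounding, and 40% fell, against 22.3% of all genes. ODC2, a mitochondrial carrier gene for 2-oxoadipate and 2-oxoglutarate, read 10.19, 10.06 and 10.27 on the log2 scale without inhibitors and 10.58, 10.70 and 10.70 with them, and it rose by 0.48 (SE 0.07, limma adjusted p = 0.00412). Its product carries the intermediate made in the LYS12 step out of the mitochondrion. ARO8, whose aminotransferase makes 2-aminoadipate as well as aromatic amino acids, fell by 0.29 (SE 0.04, limma adjusted p = 0.00418), and the aconitase gene ACO1 fell by 0.20 (limma adjusted p = 0.0124). Without inhibitor replicate 3 the list held 2 rises.

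Among 12 genes that supply or use 2-oxoglutarate, citrate or glutamate, 3 rose, 4 fell and 5 were not called, with a median of -0.04. The shares, 25% higher and 33.3% lower, lie near the 19.9% and 22.3% of all genes. GDH1, the main NADPH-dependent glutamate dehydrogenase gene, rose by 0.34 on the log2 scale (SE 0.05, limma adjusted p = 0.00505), and CIT2, the peroxisomal citrate synthase gene, rose by 0.33 (SE 0.06, limma adjusted p = 0.00731). IDP2, which makes 2-oxoglutarate and NADPH in the cytosol, fell by 0.55 (SE 0.09, limma adjusted p = 0.00795). GDH3, an isozyme gene of GDH1, fell by 0.36 (limma adjusted p = 0.0199), a call lost without no-inhibitor replicate 2 (adjusted p = 0.0645), no-inhibitor replicate 3 (0.0586) or inhibitor replicate 2 (0.0518). The count of falls in this list dropped to 2 when no-inhibitor replicate 1, no-inhibitor replicate 2 or inhibitor replicate 3 was left out, and to 1 when no-inhibitor replicate 3 or inhibitor replicate 2 was.

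Regulators other than LYS14 changed less than LYS14 did on the log2 scale. Of 8, 2 rose, 1 fell and 5 were not called, with a median of 0.01. The shares were 25% higher and 12.5% lower, against 19.9% and 22.3% of all genes. GCN4, the general activator of amino acid synthesis, which is controlled mainly in its translation, fell by 0.13 (SE 0.03, limma adjusted p = 0.013). Its log2 signal was 13.24, 13.18 and 13.20 without inhibitors and 13.04, 13.10 and 13.08 with them, without overlap. MKS1, also known as LYS80, whose loss raises the LYS genes, had a log2 fold change of 0.07 (limma adjusted p = 0.138), which was 0.04 without no-inhibitor replicate 3. RTG2, of the retrograde pathway that Mks1 restrains, rose by 0.23 (SE 0.05, limma adjusted p = 0.0126). URE2, which holds back nitrogen regulators, rose by 0.15 (limma adjusted p = 0.039), a call lost when any replicate but no-inhibitor replicate 1 was left out (adjusted p 0.0581 to 0.110). In those same refits the list held 1 rise, and without no-inhibitor replicate 2 or no-inhibitor replicate 3 it held 2 falls.

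Lysine enters the cell mainly through the permease Lyp1, and its gene was not called. LYP1 read 10.21, 10.27 and 10.22 on the log2 scale without inhibitors and 10.27, 10.18 and 10.19 with them, a log2 fold change of -0.02 (limma adjusted p = 0.718), so the groups overlapped. Of 11 measured genes for the transport of basic amino acids, 6 fell in limma, 0 rose (0 also at an unadjusted p under 0.05) and 5 were not called, with a median of -0.18. That is 54.5% lower, against 22.3% of all genes, and 0% higher, against 19.9%. VBA3, among those not called, was above background on only 3 arrays. The broad permease gene GAP1 fell by 1.61 (limma adjusted p = 0.00102), the arginine permease gene CAN1 by 0.65 (SE 0.07, limma adjusted p = 0.00174) and RTC2, a vacuolar membrane transporter gene, by 0.60 (SE 0.04, limma adjusted p = 0.000578). ALP1, a relative of CAN1, fell by 0.44 (limma adjusted p = 0.0298), but it was called without inhibitor replicate 1 and not without any of the other 5 replicates in turn (adjusted p 0.0643 to 0.0895).

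Charging of tRNA with lysine uses KRS1 in the cytosol and MSK1 in mitochondria. MSK1 fell by 0.43 on the log2 scale (SE 0.04, limma adjusted p = 0.00101), from 7.24, 7.16 and 7.19 to 6.82, 6.77 and 6.72. KRS1 had a log2 fold change of -0.24 with replicates that spread more (SE 0.11, limma adjusted p = 0.126). It was -0.15 without inhibitor replicate 1 and -0.32 without inhibitor replicate 2, and not called in either.

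Of 29 measured genes of other amino acid pathways that Gcn4 is known to activate, 17 fell, 3 rose and 9 were not called, with a median of -0.14. That is 58.6% lower and 10.3% higher, beside 55.6% and 11.1% of the 9 lysine genes and 22.3% and 19.9% of all genes. ARG4, of arginine synthesis, fell by 0.72 (SE 0.03, limma adjusted p = 0.000329), TRP5 by 0.37 (SE 0.03, limma adjusted p = 0.00115) and ARG1 by 0.36 (SE 0.02, limma adjusted p = 0.000527). SER33, of serine synthesis, rose by 0.36 (SE 0.05, limma adjusted p = 0.00333). Whether the lysine genes differ from this list was not tested.

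**Figure D4:**
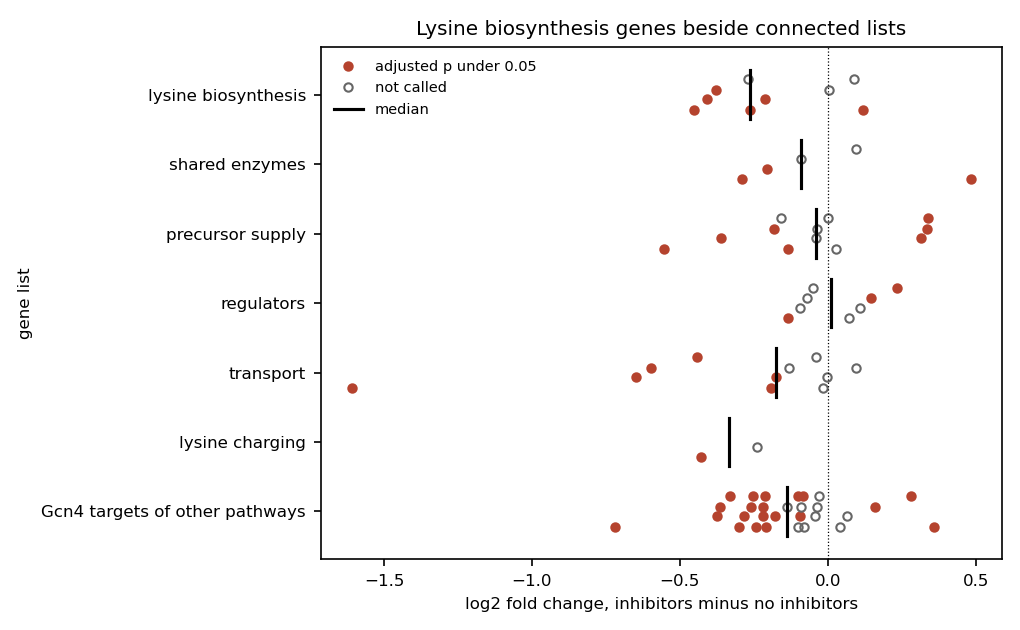
Log2 fold change, inhibitors minus no inhibitors (horizontal axis), of each measured gene in the lysine list and 6 connected lists; filled points have an adjusted p under 0.05, open points are not called, and black bars are list medians. Vertical offsets within a list only separate the points. The medians run from -0.33 for the 2 lysine charging genes to 0.01 for the regulators.

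Profiles most like that of LYS14 were sought among the 5440 genes outside the 9, by the Euclidean distance between log2 signals over the 6 arrays after each gene's mean had been subtracted. The 5 nearest were CUP9, MSK1, YBL029C-A, YER158C and MCR1, at distances of 0.04 to 0.06. CUP9 encodes a repressor of peptide uptake, MSK1 the mitochondrial lysyl-tRNA synthetase, and MCR1 a mitochondrial NADH-cytochrome b5 reductase. Their log2 fold changes ran from -0.49 for YER158C to -0.43 for MSK1, against -0.45 for LYS14. The measure mainly finds genes with a like change between the groups, and it is given as a description.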

How the data were processed

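The authors deposited log2 signals, 1 column for each of 6 arrays. GCRMA and limma are named, per the submitters' processing notes, without versions. GCRMA removes background using probe sequence and puts arrays on a common scale. Its low signals pile up at a floor of 2.21, where changes are understated. No further normalization was applied. Of 10762 probe sets, the platform annotation paired 5498 with 1 S. cerevisiae gene and 1746 with 1 fission yeast gene. For genes with several probe sets the brightest was used, giving 5449 genes.

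The group comparison was fitted with limma 3.58.1 (R 4.3.3), with group as the single factor, two-sided, after a test on simulated data. Replicates are biological per the labels, which name no batch, and no 2 arrays held identical values. The 9 genes, the 6 connected lists and the tests were chosen with earlier results of these data known. Named were the 9 genes, GCN4, MKS1, LYP1, ARO8 and KRS1, up to 4 called genes of each connected list by size of change, and the 5 genes nearest to the member with the largest change. Alternatives covered normalization, centring, variance moderation, array weights, a replicate block, an intensity filter, the treatment of probe sets, the threshold and leaving out each array. Figures were drawn with matplotlib 3.10.9.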

Additional observations from a re-analysis of the deposited data

How the results depend on the processing

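LYS1, LYS2, LYS5, LYS14 and LYS20 stayed lower and called in all 15 refits. Of these, LYS5 came closest to the threshold, at a limma adjusted p of 0.0471 with the replicate number as a block. LYS9 stayed higher in all 15 and called in 14: with the replicate number as a block it had a log2 fold change of 0.12 and a limma adjusted p of 0.0554, which left 0 of the 9 genes called higher (1 at an unadjusted p under 0.05) and 5 lower. Deviations of same-numbered arrays from their group means had r = -0.25 to -0.20 across genes, against 0.05 to 0.18 for differently numbered arrays. These ranges are not independent, because subtracting the group mean makes negative values on one side go with positive values on the other. The labels do not say whether a number marks a shared culture or run, and 3 arrays a group cannot settle it. The block gave 774 genes higher and 810 lower, against 1086 and 1214, and in limma it also lost the calls of GCN4 (limma adjusted p = 0.0692), ACO1 (0.0634), GDH3 (0.0531), URE2 (0.097) and ALP1 (0.0833). Without variance moderation GDH3 (ordinary t-test adjusted p = 0.0556), URE2 (0.0782) and ALP1 (0.0758) were lost. With array weights URE2 was lost (limma adjusted p = 0.0511). LYS21 was called after median centring (log2 fold change -0.27, limma adjusted p = 0.0293) and with genes near background left out (-0.27, limma adjusted p = 0.0363). Leaving out 1 array at a time moved it between -0.34 and -0.19, and it was called in only 3 of the 15 refits. LYS4, never called, was at -0.0024 after centring and between -0.0252 and 0.0182 without single arrays. LYP1, also never called, lay between -0.0469 and 0.00076 without single arrays. The difference between LYS20 and LYS21 lay at -0.20 to -0.09 without single arrays. At an adjusted p under 0.01 there were 608 genes higher (11.2%) and 582 lower (10.7%), 5 connected genes higher against 9, and still 5 lysine genes lower and 1 higher. The cause of these differences was not tested. Among the 9 genes the SE ran from 0.02 for LYS9 to 0.09 for LYS21, so the smallest change that 6 arrays resolve differs by gene. Small changes, such as those of LYS9 and LYS12, should be read with care.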
